A study of Rattus norvegicus with 2 samples.

Results

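The 35 genes described here drive the cell division cycle and DNA replication. They encode the cyclins and cyclin-dependent kinases (CDKs), the loading machinery of replication origins, the enzymes of DNA and nucleotide synthesis, and the kinases and regulators of mitosis. They were taken by gene symbol from the deposited gene expression table of 32662 genes, where 34 of the 35 were found. The level of *Ccnb2* (cyclin B2) was not analysed here, and only its promoter was searched. Of the 35, 23 act from G1 into S phase (G1/S) and 12 mainly in G2 and mitosis (G2/M), with 11 of the latter in the table. The data come from retinas of Long-Evans rats aged 2 months. The library CTRL is from a retina after a sham procedure, and IR12 is from a retina taken 12 h after reperfusion that followed ischemia, an interruption of the blood supply. Each condition has 1 library, so no difference below has a replicate error or a test. RNA was total RNA depleted of ribosomal RNA. Levels are given as FPKM, that is fragments scaled to transcript length and to library size, which sets genes of different length on a common scale.

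A quiescent cell enters the cycle when growth signals raise MYC and the D-type cyclins, which activate CDK4 and CDK6. These kinases phosphorylate the retinoblastoma protein and release E2F transcription factors, which switch on cyclin E, the MCM helicase that is loaded at replication origins, and enzymes of nucleotide synthesis. Mitotic genes follow later in the cycle, and adult mammalian retina is a tissue of postmitotic neurons in which glia are quiescent and seldom divide.

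The markers of the labelled tissue were abundant in both libraries. *Gnat1*, for the alpha subunit of rod transducin, stood at 4027 FPKM in CTRL and 4237 FPKM in IR12, and 7 rod photoreceptor markers summed to 8752 and 11151. None of the 7 rod markers differed by 2-fold as deposited, though *Sag* did when both libraries were scaled to the same sum (1.57), so both libraries carry the rod transcripts that define retina.

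The change of each gene was measured as the log2 ratio of (FPKM + 1) in IR12 to (FPKM + 1) in CTRL, and a gene was called at least 2-fold different when this ratio reached 1 or -1. The pseudocount of 1 understates the change of low genes, and a gene under 1 FPKM in both libraries cannot reach 2-fold. On this scale 5 of the 34 (14.7%) were higher in IR12 by 2-fold or more, against 6.56% of the 13599 genes with an FPKM of at least 1 in at least 1 library. None of the 34 was at least 2-fold lower, against 6.12% of the 13599. With a pseudocount of 0.1, 7 were higher (20.6%, against 8.59%) and 3 lower (8.82%, against 8.65%). These 3 were below 1 FPKM in both libraries, so they lie outside the 13599 genes that give the 8.65%. The 5 genes were *Myc*, *Ccnd1*, *Ccnd2*, *Cdk6* and *Mcm4*, so 4 of them act in G1 entry and 1 at replication origins. Of the 34 genes, 23 had an FPKM of at least 1 in at least 1 library and 11 were below 1 in both. Over those 23, a set chosen after the values were seen, 5 (21.7%) were higher and none lower. *Myc* and *Mcm3* passed this limit only through IR12, where they were higher. The limit also left out the 3 genes that were lower with a pseudocount of 0.1. The shares over the 23 are thus partly set by the limit, and no conclusion is drawn from them. The 23 G1/S genes had a median log2 ratio of 0.27 and the 11 G2/M genes one of -0.08, while the median of all 13599 genes was 0.02. In sum, the G1/S genes reached 245 FPKM in CTRL against 410.2 in IR12, and the G2/M genes 13.2 against 11.8. With both libraries scaled to the same sum, the G2/M sum would be higher in IR12, not lower. In a whole retina, fewer cells of a type and less RNA per cell cannot be told apart.

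Scaling affected these counts. Small non-coding RNAs held 67.9% of the summed FPKM in CTRL and 46.0% in IR12. Rescaling both libraries to the same sum (TPM scale) therefore moved the median of all 13599 genes to 0.59, with 2817 genes at least 2-fold higher and 436 lower, in place of 892 and 832. Of the 34 genes, 10 were then at least 2-fold higher, the added ones being *Cdk4*, *Mcm2*, *Mcm3*, *Mcm7* and *Pcna*, and 20.7% of all genes were. The G2/M median turned positive on that scale, at 0.13, and the G1/S median was 0.62. With a pseudocount of 1 the ratio of a low gene hardly follows a rescaling, and 7 of the 11 G2/M genes are low. The medians were therefore also set beside all genes over genes with a mean FPKM of at least 1 only (13186 genes, a comparison chosen after the values were seen). The 4 G2/M genes then differed from all genes by -0.0026 as deposited and by -0.16 on the TPM scale, and the 19 G1/S genes by 0.58 and 0.47. Of the 34 genes, 17 were higher in IR12 and 6 (17.6%) were lower under all 5 settings, which are FPKM as deposited, a pseudocount of 0.1 and 3 rescalings, against 44.6% and 15.7% of all genes, and 11 changed sign between them. A pseudocount cannot turn a sign, and a rescaling shifts the median of all genes too, so a sign is best read beside that median.

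**Figure D1:**
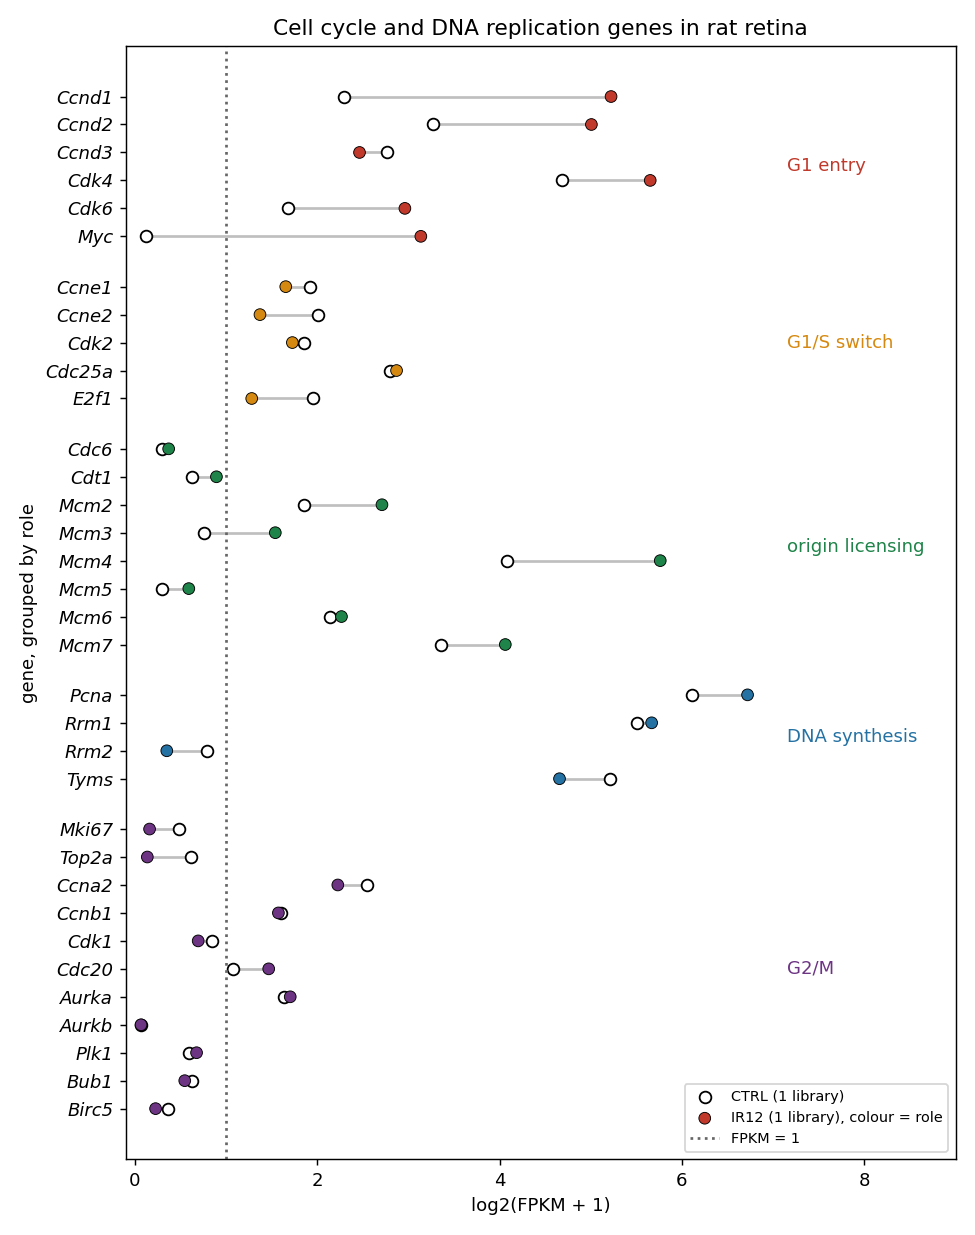
Level of each of the 34 genes in CTRL (open circles) and IR12 (filled circles, coloured by role), 1 library each, as log2(FPKM + 1), with a dotted line at an FPKM of 1. *Myc*, *Ccnd1* and *Mcm4* show wide gaps between the libraries, and 7 of the 11 G2/M genes lie left of the line in both.

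The 6 genes of G1 entry had a median log2 ratio of 1.51, and 5 of them had a higher FPKM in IR12. *Myc*, a transcription factor that promotes growth and proliferation (chr7:102586313-102591237 on build rn6), measured 0.0911 FPKM in the sham retina and 7.79 FPKM after injury. Its log2 ratio of 3.01 ranked 104 among the 13599 genes, counted from the highest. With a pseudocount of 0.1 the ratio was 5.37 (rank 98), on the TPM scale 3.19 (rank 124) and without small RNAs 3.83 (rank 91). *Myc* was thus close to undetected in CTRL, where it ranked 33 of the 34 genes by level, and ranked 9 in IR12. *Ccnd1*, which encodes cyclin D1, the main D cyclin of most dividing cells (chr1:218090750-218100325), measured 3.90 FPKM in CTRL and 36.3 FPKM in IR12. This log2 ratio of 2.93 stood at rank 117, and at rank 283 with a pseudocount of 0.1 and 93 on the TPM scale. *Ccnd2*, which encodes cyclin D2 (chr4:159674885-159697207), had 8.62 and 31.1, a log2 ratio of 1.74. *Ccnd3*, for cyclin D3, differed from both, with 5.81 against 4.51 FPKM, and its log2 ratio of -0.30 became 0.23 on the TPM scale.

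Together the D cyclins reached 18.3 FPKM in CTRL and 72.0 FPKM in IR12, 3.93 times as high. On the TPM scale this ratio is larger, since all genes summed to 1402321 FPKM in CTRL and 895200 in IR12. The make-up of the D cyclin sum differed between the libraries. *Ccnd1* made up 21.3% of the sum in CTRL and 50.5% in IR12, *Ccnd2* 47.0% and 43.3%, and *Ccnd3* 31.7% and 6.27%. The order of the 3 genes by level was therefore *Ccnd2*, *Ccnd3*, *Ccnd1* in CTRL and *Ccnd1*, *Ccnd2*, *Ccnd3* in IR12, an order that no rescaling of whole libraries alters. The markers of leukocytes and microglia were also higher in IR12 in sum (21.8 and 138 FPKM) and those of Müller glia lower (1226 and 449), and their part in these values was not tested.

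The kinases that D cyclins activate were higher too. *Cdk6* (chr4:27785647-27966398) stood at 2.21 FPKM in CTRL against 6.79 FPKM in IR12, a log2 ratio of 1.28. *Cdk4* had 24.7 and 49.3, a log2 ratio of 0.97 just under the 2-fold limit. *Cdk4* remained the more abundant of the kinase genes, with 91.8% of their summed FPKM in CTRL and 87.9% in IR12. The listed locus of *Cdk4* (chr7:70349863-70355619) is shared with *Tspan31*, a tetraspanin gene with an FPKM of 32.9 and 48.6, so reads of these overlapping genes are uncertain in their assignment. The neighbours of *Ccnd1*, *Ccnd2* and *Mcm4* within 25 kb, looked up after the values were seen, were *Oraov1*, *Tigar* and *Prkdc*, with log2 ratios of 0.45, 0.07 and -0.08.

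**Figure D2:**
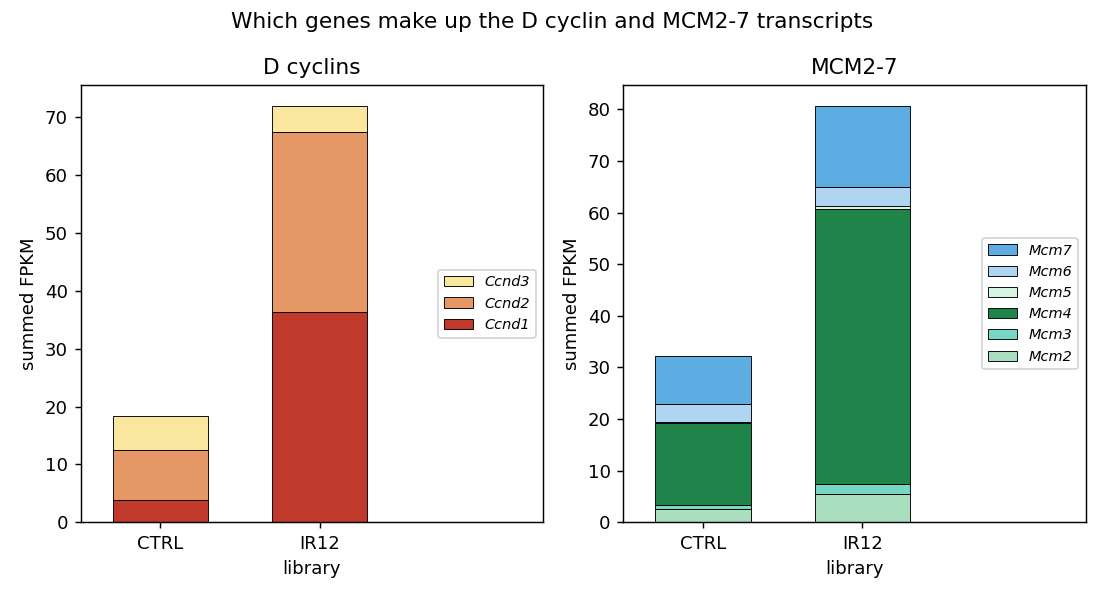
Summed FPKM of the D cyclin genes (left) and of the genes of the MCM helicase (right) in CTRL and IR12, with each gene's part stacked from 0. *Ccnd1* grows from 21.3% to 50.5% of the D cyclin sum and *Mcm4* from 49.6% to 66.0% of the helicase sum, and *Ccnd3* shrinks from 31.7% to 6.27%.

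The 5 genes of the switch that carries the cell from G1 into S phase, after the D cyclins, had a median log2 ratio of -0.26. None reached 2-fold, while 6.56% of all genes were higher and 6.12% lower, so with 5 genes this count says little. *E2f1*, a transcription factor that activates S-phase genes, stood at 2.87 FPKM in CTRL against 1.43 FPKM in IR12, a log2 ratio of -0.67. *Ccne2*, for cyclin E2, had 3.03 and 1.59, a log2 ratio of -0.64. These genes were lower in IR12 under all 5 settings, although both lie in listed loci shared with other genes, among them *Ints8* for *Ccne2*. *Ccne1*, for cyclin E1, had 2.78 and 2.15, and *Cdk2*, the kinase that E cyclins activate, had 2.61 and 2.31. Their log2 ratios of -0.26 and -0.12 became 0.19 and 0.32 on the TPM scale, where the median of all genes was 0.59. *Cdc25a*, the phosphatase that removes inhibitory phosphates from CDK2, was nearly level at 5.95 and 6.31. Under each of the 5 settings the median of this group was below that of all genes, by a difference of -0.29 with FPKM as deposited and -0.40 on the TPM scale.

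All 8 origin-licensing genes were higher in IR12, under each of the 5 settings, as 44.6% of all genes were. Only 5 of the 8 are among the 13599 genes that give the shares of all genes. The 3 others were below 1 FPKM in both libraries. Of the 8, 1 (12.5%) reached 2-fold as deposited, against 6.56% of all genes, 3 (37.5%) did with a pseudocount of 0.1, against 8.59%, and 4 did on the TPM scale, against 20.7%. On that scale *Cdc6* (0.19), *Mcm5* (0.43) and *Cdt1* (0.50), each below 1 FPKM in both libraries, lay below the median of all genes. The median log2 ratio of the 8 was 0.50. *Mcm2* to *Mcm7* encode the subunits of the replicative helicase, a ring that contains each of them. *Mcm4* (chr11:89511191-89524892) stood at 15.9 FPKM in CTRL against 53.3 FPKM in IR12, a log2 ratio of 1.68. *Mcm7* had 9.27 and 15.7, and *Mcm2* had 2.61 and 5.54, with log2 ratios of 0.70 and 0.86, and the listed locus of *Mcm7* is shared with the microRNA genes *Mir106b*, *Mir25* and *Mir93*. *Mcm3* had 0.690 and 1.91, a log2 ratio of 0.78, and *Mcm6* had 3.39 and 3.81, a log2 ratio of 0.13. *Mcm5* was low in both libraries, at 0.228 and 0.506. The 6 transcripts were thus far from equal in level in both libraries. *Mcm4* made up 49.6% of their summed FPKM in CTRL and 66.0% in IR12. Their sum was 32.1 in CTRL and 80.7 in IR12, 2.51 times as high as deposited and more on the TPM scale. Without *Mcm4* it was 16.2 and 27.5. The helicase is loaded by CDC6 and CDT1, and their genes were low in both libraries. *Cdc6* had an FPKM of 0.229 and 0.292 and *Cdt1* one of 0.542 and 0.858.

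**Figure D3:**
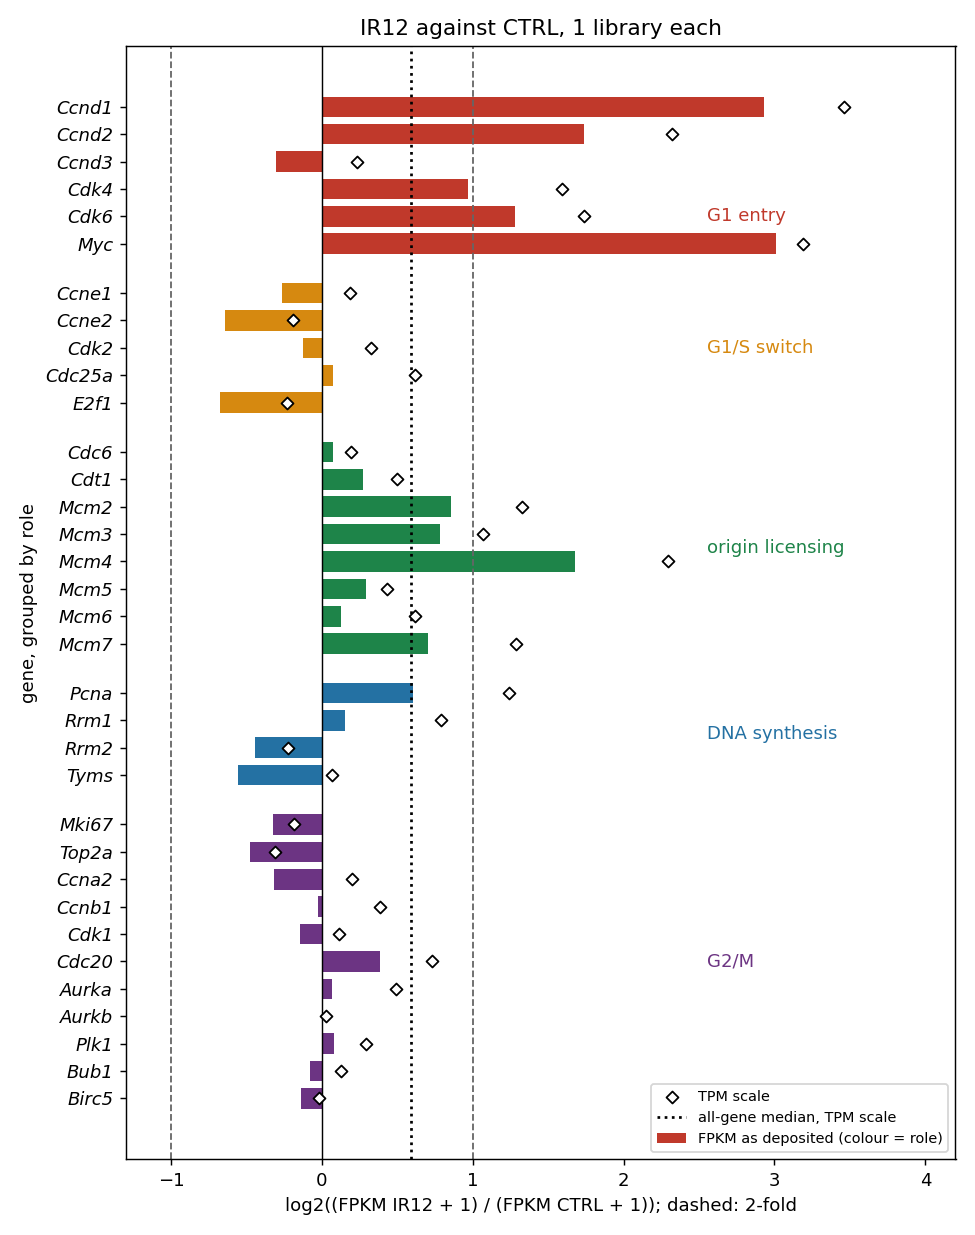
Log2 ratio of IR12 to CTRL for each of the 34 genes from FPKM as deposited (bars, coloured by role) and on the TPM scale (diamonds), with dashed lines at 2-fold and a dotted line at the median of all genes on the TPM scale (0.59). The bars of *Ccnd1*, *Ccnd2*, *Cdk6*, *Myc* and *Mcm4* pass 1, and no G2/M bar or diamond does. Of the 11 G2/M genes, 7 were below 1 FPKM in both libraries, so their bars cannot reach 1.

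The genes of DNA synthesis were split. *Pcna*, the sliding clamp of DNA polymerases, which also serves DNA repair, was the most abundant of the 34 genes, at 68.3 FPKM in CTRL and 104 FPKM in IR12, with a log2 ratio of 0.61. *Rrm1*, the large subunit of ribonucleotide reductase, had 44.6 and 49.8, a log2 ratio of 0.16. *Rrm2*, the small subunit that is made in S phase, had 0.736 and 0.274, a log2 ratio of -0.45. *Rrm2b*, the small subunit used outside S phase, lies outside the 35 genes and had 29.8 and 24.0. The S-phase subunit *Rrm2* thus made up under 1% of the reductase transcripts in both libraries, at 0.978% and 0.370%. *Tyms*, thymidylate synthase, had 36.1 and 24.2, a log2 ratio of -0.56 that became 0.07 on the TPM scale.

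The G2/M genes were low in both libraries. Their median FPKM was 0.545 in CTRL and 0.598 in IR12, and 7 of the 11 were below 1 in both, which with a pseudocount of 1 cannot reach 2-fold. None of the 4 others was 2-fold different, while 6.56% of all genes were higher and 6.12% lower, so with 4 genes this count says little. *Mki67*, the gene of the proliferation marker Ki-67, had 0.402 FPKM in CTRL against 0.118 in IR12. *Top2a*, the topoisomerase that untangles replicated chromosomes, had 0.531 and 0.0988. Both were lower in IR12 under all 5 settings, with log2 ratios of -0.33 and -0.48 as deposited, and at least 2-fold lower with a pseudocount of 0.1, at -1.21 and -1.67. *Cdk1*, the mitotic kinase, had an FPKM of 0.791 and 0.618, and *Ccnb1*, for its partner cyclin B1, had 2.03 and 1.98. *Ccna2*, for cyclin A2 of S and G2 phases, had the highest level of the group at 4.84 and 3.68, in a listed locus shared with *Exosc9* and *Bbs7*. *Cdc20*, an activator of the ubiquitin ligase that ends mitosis, had 1.11 and 1.77, and its log2 ratio of 0.39 was the highest of the group. The mitotic kinase *Aurka* had 2.11 and 2.26. The 4 other genes stayed under 1. *Plk1*, a kinase of spindle assembly, had 0.510 and 0.598, and *Bub1*, a kinase of the spindle checkpoint, 0.545 and 0.461. *Birc5* (survivin), in a locus shared with another listed gene, had 0.290 and 0.170, and *Aurkb*, its partner kinase at the centromere, 0.0482 and 0.0472. The G2/M transcripts were therefore scarce in the sham and in the injured retina alike.

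FPKM holds no read counts, but its lowest values come in steps, which give the ratio between the libraries of the FPKM that 1 read adds. The step in CTRL was 1.71 times that in IR12 at 17 of the 25 locus lengths compared, so 1 read raised FPKM more in CTRL. After multiplication by this step ratio, the FPKM ratio of *Myc* was 146, and the smallest whole numbers of reads with that ratio are 1 in CTRL and 146 in IR12. Such numbers, with up to 30 reads in CTRL, were found for 17 of the 34 genes, and not for *Aurkb* or *Top2a*. For example, they were 4 and 21 for *Cdk6*, 2 and 1 for *Mki67*, and 1 and 1 for *Birc5*, within a relative tolerance of 0.0001. True read numbers may be multiples of these, so they do not show how many reads a value rests on.

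**Figure D4:**
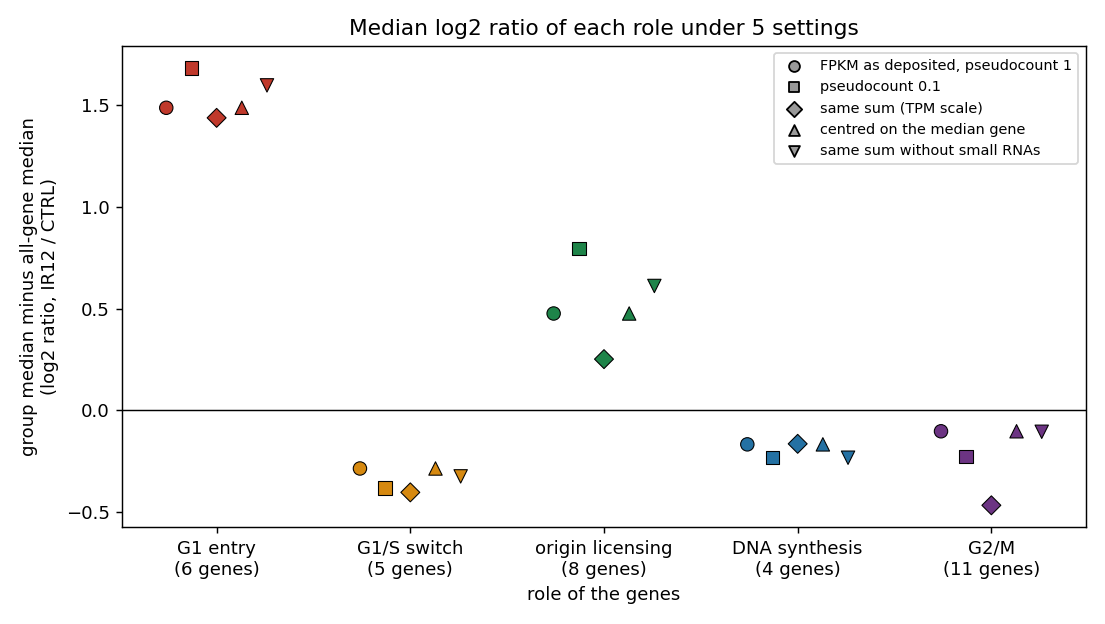
Median log2 ratio of the genes of each role minus the median of all 13599 genes, under 5 settings. G1 entry lies at 1.44 or above and origin licensing at 0.25 or above under each of them, while the G1/S switch, DNA synthesis and G2/M groups lie below 0. Over genes with a mean FPKM of at least 1, the 4 G2/M genes lie between -0.16 and 0.01 and the 3 of DNA synthesis between 0.13 and 0.19.

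RefSeq promoters (build GRCr8, from 250 bases before to 50 after the transcript start) were held for 24 of the 35 genes, 14 of G1/S and 10 of G2/M. They were searched on both strands for the E2F letters TTTGGCGC, TTTCGCGC, TTTCCCGC and TTTGCCGC, for the cell cycle homology region (CHR) TTTGAA of late genes, and for CCAAT. E2F letters were found in 8 of the 14 G1/S promoters (57.1%), 1 of the 10 G2/M promoters and 2.14% of 33469 promoters. All 6 licensing genes with a promoter held them, among them *Mcm5*, whose level was low in both libraries. CHR letters were found in 7 of the 10 G2/M promoters (70.0%), 1 of the 14 G1/S promoters and 18.3% of all. CCAAT was found in 9 of the 14, 8 of the 10 and 37.5% of all. The E-box CACGTG, the letters that MYC and MAX bind, was added after the level of *Myc* was seen. It was found in *Cdk4* and *Mcm2*, that is 2 of the 24 promoters (8.33%), and in 6.42% of all promoters. E2F letters thus stood mostly before G1/S genes and CHR letters before G2/M genes. The genes with E2F letters spanned log2 ratios from -0.56 for *Tyms* to 0.86 for *Mcm2*. A match is a description of the letters, and no match says only that these letters are not in this window. The promoters of *Ccnd1*, *Ccnd2*, *Cdk6*, *Myc*, *Mcm4*, *E2f1*, *Ccne2*, *Ccna2*, *Cdc6*, *Rrm2* and *Aurkb* were not used here.

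The stretches before the transcript start of 6 of these genes show the letters in place. *Cdk4* is shown for its 3 E-boxes, *Mcm2*, *Mcm6* and *Mcm7* for the licensing genes, and *Cdk1* and *Cdc20* for the mitotic genes. Each is given 5′ to 3′ on the strand of the gene. Capitals mark the E-box in *Cdk4*, the E2F letters and the E-box in *Mcm2*, the E2F letters in *Mcm6* and *Mcm7*, the E2F letters and then both CHRs in *Cdk1*, and the CHR in *Cdc20*. In *Mcm2* and *Mcm6* an E2F match on each strand overlaps the other.
*Cdk4*, chr7:64771203-64771452, plus strand: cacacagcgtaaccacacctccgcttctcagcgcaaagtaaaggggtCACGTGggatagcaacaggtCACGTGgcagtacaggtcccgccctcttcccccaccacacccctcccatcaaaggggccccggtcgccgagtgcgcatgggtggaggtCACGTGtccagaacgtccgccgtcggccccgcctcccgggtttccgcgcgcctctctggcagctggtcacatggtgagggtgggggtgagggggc
*Mcm2*, chr4:122918095-122918244, minus strand: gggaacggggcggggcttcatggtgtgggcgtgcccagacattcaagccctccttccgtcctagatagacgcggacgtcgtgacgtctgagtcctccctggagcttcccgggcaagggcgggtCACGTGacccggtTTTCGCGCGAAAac
*Mcm6*, chr13:42404353-42404502, minus strand: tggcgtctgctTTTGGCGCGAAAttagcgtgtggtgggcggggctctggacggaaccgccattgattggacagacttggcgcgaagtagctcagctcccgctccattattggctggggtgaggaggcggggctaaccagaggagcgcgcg
*Mcm7*, chr12:22163179-22163328, minus strand: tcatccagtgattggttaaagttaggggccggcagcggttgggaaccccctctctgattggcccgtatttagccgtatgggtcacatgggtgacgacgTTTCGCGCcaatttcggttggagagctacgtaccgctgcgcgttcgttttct
*Cdk1*, chr20:19265143-19265292, plus strand: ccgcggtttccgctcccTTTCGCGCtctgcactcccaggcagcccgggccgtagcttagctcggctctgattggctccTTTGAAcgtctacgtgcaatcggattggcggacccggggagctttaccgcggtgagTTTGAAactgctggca
*Cdc20*, chr5:137255800-137255949, minus strand: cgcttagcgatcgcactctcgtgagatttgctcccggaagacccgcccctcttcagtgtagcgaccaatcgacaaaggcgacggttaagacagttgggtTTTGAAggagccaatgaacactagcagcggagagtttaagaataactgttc
Beside these letters stand quite different values. *Cdk4*, with 3 E-boxes, had a log2 ratio of 0.97, and *Mcm2*, with an E-box near E2F letters, had 0.86. *Mcm7* and *Mcm6*, with E2F letters and no E-box, had 0.70 and 0.13. *Mcm3* and *Pcna*, also without an E-box, had 0.78 and 0.61. The part of these letters in the values was not tested. *Cdk1* and *Cdc20* had -0.15 and 0.39.

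**Figure D5:**
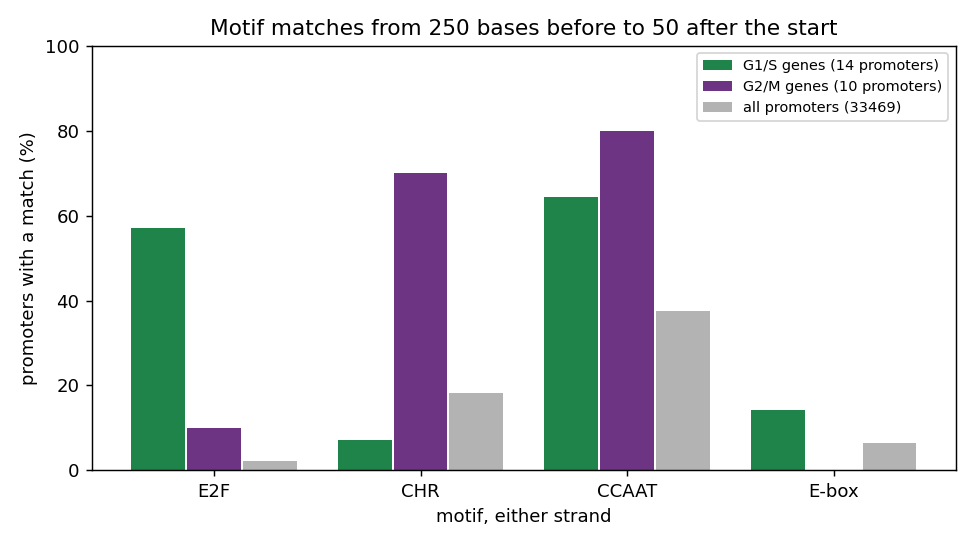
Share of promoters (%) with at least 1 match to each set of letters on either strand, for the 14 G1/S promoters, the 10 G2/M promoters and all 33469 promoters. E2F letters stand at 57.1% of G1/S promoters and CHR letters at 70.0% of G2/M promoters, against 2.14% and 18.3% of all.

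The 128 further genes of the same pathways were read from fixed lists, and 125 of them were in the table. Of these, 1 gene (0.8%) was at least 2-fold higher and 5 (4.0%) lower, against 6.56% and 6.12% of all genes, and 33 were below 1 FPKM in both libraries and could not reach 2-fold. Their median log2 ratio was 0.04. With a pseudocount of 0.1 the counts were 5 and 6 (4.0% and 4.8%, against 8.59% and 8.65%), and on the TPM scale 14 (11.2%, against 20.7% of all genes) and 1, so the calls below hold for FPKM as deposited. Of the 6 CDK inhibitor genes in the table, 1 was at least 2-fold lower. That gene was *Cdkn1c*, for p57, at 7.16 FPKM in CTRL against 2.14 in IR12, and its log2 ratio of -1.38 was -0.85 on the TPM scale. *Cdkn1b*, for p27, was the most abundant inhibitor at 63.5 and 76.2, and *Cdkn2a* was listed at 0 in both libraries. None of the other 5 inhibitor genes thus reached 2-fold. None of the 12 pocket protein and E2F-DP genes differed by 2-fold, and *Rb1*, for the retinoblastoma protein, was the most abundant of them at 44.4 and 30.6. None of the 8 genes of the MYC partner network in the table did either. *Max*, the obligate partner of MYC, had 59.0 and 89.9, so it far exceeded *Myc* in both libraries.

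None of the 45 other genes of replication and nucleotide supply differed by 2-fold as deposited, while 6.56% of all genes were higher and 6.12% lower. Their log2 ratios ran from -0.35 to 0.55, with a median of 0.11. Their most abundant gene was *Rpa1*, a subunit of the protein that coats single-stranded DNA, at 77.8 and 65.1. Of the 45, 8 were below 1 FPKM in both libraries and could not reach 2-fold. With a pseudocount of 0.1, *Dbf4* (1.28) and *Orc1* (1.07) passed 2-fold (4.44%, against 8.59% of all genes). On the TPM scale 4 genes did (8.89%, against 20.7%). Of 47 genes of mitosis and cytokinesis in the table, 20 were below 1 FPKM in both libraries. As deposited, 1 (2.13%) was at least 2-fold higher and 2 (4.26%) lower, against 6.56% and 6.12% of all genes. The higher gene was *Kif11*, the kinesin that pushes spindle poles apart, with 2.79 in CTRL and 56.4 in IR12 and a log2 ratio of 3.92 at rank 42 of the 13599 genes. The lower ones were *Spc25*, a kinetochore subunit, with 3.09 and 0.362, and *Ect2*, an activator of RhoA in cytokinesis, with 2.47 and 0.386. Their log2 ratios of -1.59 and -1.32 were -1.19 and -0.95 on the TPM scale. *Hmmr*, a spindle and hyaluronan-binding protein gene, was the most abundant of this list at 80.4 and 130.3, and its log2 ratio of 0.69 was the next highest of the list after *Kif11*. With a pseudocount of 0.1, 3 genes of this list were higher and 3 lower (6.38% each, against 8.59% and 8.65% of all genes). On the TPM scale *Kif11*, *Hmmr* and *Bub3* were higher (6.38%, against 20.7%) and *Spc25* lower (2.13%, against 3.21%). Of 7 genes of quiescence and cycle exit, *Ccng2* and *Tob1*, which restrain proliferation, were at least 2-fold lower (28.6%, against 6.12% of all genes). *Ccng2* had 20.2 and 9.01, and *Tob1* had 83.1 and 40.4. Their log2 ratios of -1.08 and -1.02 were -0.48 and -0.39 on the TPM scale. The most abundant genes of that list were *Ccng1*, at 218 in both libraries, and *Btg1*, at 236 and 154.

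Markers of other cells differed between the libraries, and their part in the values above was not tested. Of 10 leukocyte and microglia markers, 6 were at least 2-fold higher in IR12 (*Ptprc*, *Cd14*, *Lyz2*, *S100a8*, *S100a9* and *Itgam*), and their sum was 21.8 in CTRL and 138 in IR12. *Lyz2* was the most abundant, with 9.73 and 76.9, and *S100a8* was listed at 0 in CTRL. Of the 4 others, *Cd68* had a log2 ratio of 0.88 and *Aif1* 0.38, *Csf1r* was level at 0.03, and *Cx3cr1* was lower at 1.16 and 0.676, a log2 ratio of -0.36. Of 6 neutrophil markers, which share *S100a8* and *S100a9* with that list, 3 were at least 2-fold higher, the third being *Cxcr2*. Their sum was 0.233 and 38.6, *S100a9* was the most abundant with a log2 ratio of 4.32, *Cxcr2*, *Mmp8* and *S100a8* were listed at 0 in CTRL, and *Mpo* was listed at 0 in both. The 6 lymphocyte markers were all below 1, with sums of 0.349 and 0.686. *Cd2* was the highest of them in IR12, *Cd79a* was listed at 0 in both libraries, *Cd3e* and *Ms4a1* at 0 in CTRL and *Cd79b* at 0 in IR12. Not all myeloid markers were thus higher in IR12.

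Of 7 markers of Müller glia, the radial glia of the retina, 6 were at least 2-fold lower in IR12 (*Glul*, *Rlbp1*, *Slc1a3*, *Aqp4*, *Apoe* and *Sox9*). On the TPM scale 3 of them were, and *Slc1a3*, *Apoe* and *Sox9* had log2 ratios of -0.63, -0.66 and -0.56. The 7 markers' sum was 1226 in CTRL and 449 in IR12, with *Glul* the most abundant at 754 and 126. *Vim* was the exception, at 121 and 221. Of 4 astrocyte markers, *Gfap*, which reactive Müller glia also express, was higher at 2.95 and 21.9, *Pdgfra* was lower at 7.28 and 1.88, though just under 2-fold on the TPM scale, and *Pax2* was listed at 0 in CTRL. Their sum was 10.3 and 23.8. All 11 lens markers were at least 2-fold lower in IR12, on the TPM scale too, with a sum of 4172 in CTRL and 565 in IR12 and with *Cryba1* the most abundant at 1614 and 196. They were the crystallin genes *Cryaa*, *Cryab*, *Cryba1*, *Cryba4*, *Crybb1*, *Crybb2* and *Crygs*, and *Bfsp1*, *Bfsp2*, *Mip* and *Lim2* of lens fibres, of which *Mip* had 16.1 and 1.67 and *Lim2* 10.7 and 1.52. None of 6 endothelial markers differed by 2-fold, with sums of 117 and 76.7 and *Kdr* the most abundant at 108 and 66.8. *Kdr* thus made up most of both sums. Under all 5 settings *Cdh5*, *Vwf* and *Tie1* were higher in IR12 and *Kdr* and *Cldn5* lower, while the sign of *Tek* depended on the setting. Of 7 pigment epithelium markers, *Rpe65* was lower at 11.1 and 4.88, with a log2 ratio of -1.04 that was -0.46 on the TPM scale, *Ttr* was the most abundant at 61.8 and 87.4, and the sums were 101 and 126. Of 3 red blood cell markers in the table none differed by 2-fold, with sums of 20.8 and 35.4, nearly all of it *Hbb* at 20.4 and 35.1, whose log2 ratio of 0.75 was 1.37 on the TPM scale.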

How the data were processed

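RNA of 1 sham (CTRL) and 1 injured (IR12) retinal sample of Long-Evans rats was sequenced as total RNA depleted of ribosomal RNA, and whether both came from the same animal is not given in the sources used here. The FPKM values were deposited by the authors, and the submitters' processing notes name STAR 2.5.2b, Cuffdiff 2.2.0 and build rn6. Whether counting used strand is not given in the sources used here. Genes were matched by symbol, and listed locus starts, which count from 0, were raised by 1. Log2 ratios used a pseudocount of 1, with no test, since each group has 1 library. The step ratio was read from the lowest FPKM values and need not equal the ratio of sequenced reads. All 35 genes were named. Of the planned marker genes, 2 are not reported here. Of the pathway lists, genes at least 2-fold different with an FPKM of at least 1 in at least 1 library and the most abundant gene were named, and of the marker lists also genes at 0. *Rrm2b*, *Vim*, *Tspan31* and other neighbours were singled out with their values in view. The genes and lists were chosen with earlier results of these data known. Alternatives were a pseudocount of 0.1, 3 scalings, minimum mean FPKM of 1 and 5, a 1.5-fold limit, means, and, chosen after seeing the data, genes with unshared loci, genes with an FPKM of at least 1 in a library, and medians beside all genes with a mean FPKM of at least 1. Promoters and their coordinates are RefSeq, build GRCr8, and gene coordinates are rn6. Python 3.11.15, numpy 2.4.6, pandas 2.3.3 and matplotlib 3.10.9 were used, and the calculation was tested on simulated data.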

Additional observations from a re-analysis of the deposited data

How the results depend on the processing

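With 1 library per condition no replicate could be left out. No paired analysis was possible because the groups share 1 replicate number that only names a library. The count of genes at least 2-fold higher, 5, was 10 on the TPM scale (29.4%, against 20.7% of all genes) and with a 1.5-fold limit (29.4%, against 14.8%) and 3 of 10 with a mean FPKM of at least 5 (against 5.45%). It was 7 with a pseudocount of 0.1, against 8.59% of all genes, and 5 under the other alternatives. The count at least 2-fold lower, 0, was 3 with a pseudocount of 0.1 (*Rrm2*, *Mki67* and *Top2a*), against 8.65% of all genes. Each of the 3 was under 1 FPKM in both libraries, outside the genes that give this share. With a 1.5-fold limit the count lower was 2, against 13.7%. The G1/S median of 0.27 was 0.58 with a pseudocount of 0.1, 0.62 on the TPM scale, 0.61 and 0.65 with a mean FPKM of at least 1 and 5, and 0.55 as a mean. On the TPM scale the median of all genes was 0.59, so the G1/S median stood only 0.03 above it. The G2/M median of -0.08 was -0.20 with a pseudocount of 0.1 and -0.18 with the same sum without small RNAs. Over genes with unshared loci it was -0.03. It turned positive on the TPM scale (0.13, below the 0.59 of all genes) and over the 4 genes with a mean FPKM of at least 1 (0.020). The G2/M median minus the G1/S median was -0.35, and it was -0.78, -0.49, -0.51, -0.59 and -0.64 with a pseudocount of 0.1, on the TPM scale, with the same sum without small RNAs, with a mean FPKM of at least 1 and as means, so it stayed negative. No G2/M gene had a mean FPKM of 5, which leaves that median and the difference without a value there. Filters change the genes counted, and the cause of the other shifts was not tested. The 5 genes called higher were called under all 5 settings.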

Other observations

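Some neighbours and partners of these genes, picked with their values in view, also differed between the libraries. *Ide*, for insulin-degrading enzyme, lies 22370 bp from *Kif11* on the same chromosome and had 59.7 FPKM in CTRL against 133 in IR12, a log2 ratio of 1.14. *Hhex*, which lies 13603 bp from *Kif11*, was low in both libraries at 0.333 and 0.414 FPKM. *Mettl1*, for a methyltransferase that modifies tRNA, lies 16696 bp from *Cdk4* and had 0.863 FPKM against 7.94, a log2 ratio of 2.26. *Agap2*, which lies closer to *Cdk4*, had 4.48 FPKM against 2.99. High levels in IR12 were therefore not shared by all genes of either neighbourhood.

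Among the E2F genes outside the 35, none reached 2-fold as deposited. *E2f4*, *E2f5* and *E2f6*, whose products mostly repress, had log2 ratios of 0.81, 0.78 and 0.48, which passed 1 on the TPM scale. *E2f4* had 10.4 FPKM in CTRL against 19.0 in IR12 and *E2f5* 19.8 against 34.6. The repressors *E2f7* and *E2f8* were below 1 FPKM in both libraries, *E2f7* lower in IR12 and *E2f8* listed at 0 in CTRL. *E2f1*, an activator, was lower, and the activators *E2f2* and *E2f3* stood at 0.101 FPKM in both libraries and at 9.15 against 7.66 FPKM. On the TPM scale *E2f1* had a log2 ratio of -0.23 and *E2f3* one of 0.34, where the median of all genes was 0.59. A contrast between repressors and activators was not tested.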
